A study of Mus musculus with 2 samples.

Results

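The genes described here form the switch that takes a cell from G1 into S phase: the D-type cyclins *Ccnd1*, *Ccnd2* and *Ccnd3*, their kinases *Cdk4* and *Cdk6*, the E-type cyclins *Ccne1* and *Ccne2*, and the pocket proteins *Rb1*, *Rbl1* and *Rbl2*. They were picked by symbol and not by a measured value, though earlier results of these data were known. All 10 were found among the 24421 gene symbols of the files. RNA was counted in hematopoietic stem cells (HSCs), the rare marrow cells that maintain all blood lineages, in 1 library labelled WT and 1 labelled Ezh2 KO (below, the KO-labelled library). Both genotypes carried a tamoxifen-activated Cre recombinase, given as Ezh2 +/+ CreERT+/- for WT and Ezh2 Δ/Δ CreERT+/- for the other library, on C57BL/6. CD45.2 marrow cells were placed in lethally irradiated CD45.1 recipients, and both arms received 100 µl of tamoxifen at 10 mg/ml daily for 5 days. HSCs (CD150+CD48-CD34-Flt3- cells of the Lin- Sca-1+ c-kit+ fraction) were sorted after 1 month. *Ezh2* encodes the main methyltransferase of Polycomb repressive complex 2, which deposits the repressive mark H3K27me3. The labels give neither the ages nor the number of mice behind a library, and they do not list CD45.2 among the sorting markers, so host cells that meet the gate were not set apart by the labels.

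In G1, mitogens raise D-type cyclins, which bind CDK4 or CDK6 and phosphorylate the pocket proteins. Unphosphorylated pocket proteins hold E2F transcription factors in check. Their phosphorylation frees E2F, which drives the E-type cyclins, and cyclin E with CDK2 completes the switch. Most adult HSCs rest in G0, where p130 (the product of *Rbl2*) joins E2F4 and the MuvB core to form the DREAM repressor complex. RNA levels do not show protein levels or phosphorylation, on which this switch largely runs.

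The promoter sequences show which letters the members have in common with the genes that E2F controls. Windows from 250 bases before to 50 bases after the transcription start were taken from RefSeq (GRCm38.p6), which held 7 windows for 6 members: *Ccnd3* (with 2 windows), *Cdk4*, *Cdk6*, *Ccne1*, *Rbl1* and *Rbl2*. *Ccnd1*, *Ccnd2*, *Ccne2* and *Rb1* had no entry. The E2F motif was searched on both strands as TTTCGCGC, TTTGGCGC, TTTCCCGC or TTTGCCGC, and was held by 2.26% of all 32851 windows. Among the members it was found in *Rbl1* alone, 18 bases before the start. The CHR motif that MuvB binds, searched as TTTGAA on both strands, was held by 17.9% of all windows and among the members by *Rbl2* alone, 201 bases before the start. The AP-1 motif (TGACTCA or TGAGTCA, both strands) was held by 5.20% of all windows and by none of the 7 member windows. None of these motifs overlapped another in the members. The stretches below are printed because they carry the matches, each 5′ to 3′ on the gene's own strand with the motif in capitals. *Uhrf1* and *Mcm6*, which act in DNA methylation maintenance and replication, stand for the known E2F targets, and *Mki67*, a proliferation marker, for a gene with CHR letters.

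Rbl1, chr2:157204534-157204563, minus strand, E2F: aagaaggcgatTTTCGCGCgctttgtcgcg

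Uhrf1, chr17:56304117-56304146, plus strand, E2F: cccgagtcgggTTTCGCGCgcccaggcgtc

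Mcm6, chr1:128359734-128359763, minus strand, E2F: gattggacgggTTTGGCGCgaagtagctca

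Rbl2, chr8:91069844-91069873, plus strand, CHR: ggtctttttctcTTCAAAcgagccttctga

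Mki67, chr7:135716478-135716507, minus strand, CHR: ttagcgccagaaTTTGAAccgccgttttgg

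In the *Rbl2* window the letters TTCAAA are TTTGAA read on the other strand. Of 22 known E2F targets listed for comparison, 19 had windows and 9 of these held E2F letters. That list was assembled from genes known to be driven by E2F, so its share describes the list and is not a finding. A match is a string of letters and not a bound site.

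Gene counts came to 5763118 in WT and 4157280 in the KO-labelled library, so that 3 counts, taken as the floor, corresponded to 0.521 and 0.722 CPM (the gene's count scaled by the library's total gene count). Counts were divided by size factors (DESeq2 median of ratios, 1.17 and 0.858), and every ratio below is the KO-labelled library over WT, as log2 of the normalised count plus 1. With 1 library a group there was no replicate check and no test between conditions. Intervals are exact at 95% for independent reads and hold counting error alone. Amplified reads that carry no molecular identifier need not be separate molecules, so the intervals can be too narrow even for counting error. *Ezh2* itself (chromosome 6, 47530139 to 47595341) was counted 166 times in WT and 129 times in the KO-labelled library. The log2 ratio was 0.08 (-0.27 to 0.42), so the whole-gene count was not lower. A count over all exons cannot show whether some of them were removed, so KO stays a label here. *Xist* had 801 and 4 counts, and the 4 Y-linked genes listed had 0 counts in WT and between 106 and 275 in the other library. None of the members lies on X or Y. These sex-linked differences go along with the label, however, and their part in the values of autosomal genes cannot be told apart from it. Positions of genes are given on GRCm38 (mm10) and cover the whole annotated gene.

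HSC markers were present in both libraries, with *Kit* at 5202 and 5120 normalised counts. Of the 14 listed, 0 differed by 2-fold, with *Flt3*, against which the cells were sorted, at 84.1 and 163 normalised counts (log2 ratio 0.95) and *Cd48* at 10.3 and 12.8. At 1.5-fold, 3 of the 14 were lower and 1, *Flt3*, was higher. The lower ones were *Slamf1*, which encodes the sorting marker CD150, at 446 and 289 normalised counts (-0.62, -0.85 to -0.41), *Fgd5* (-0.59) and *Ctnnal1* (-0.70). Markers of other cells differed. The 8 eosinophil markers summed to 2.08 CPM in WT and 775 CPM in the KO-labelled library, with 5 of them at 0 counts in WT. *Ccr3* and *Siglecf*, each with 5 counts in WT and 4 in the KO-labelled library, were below the expression minimum. The 11 neutrophil markers found summed to 2092 and 3929 CPM, with 9 log2 ratios above 0 and 2 below, of which *Elane* was at -0.76. The 11 erythroid markers summed to 1784 and 2278 CPM with 4 globin genes at 0 in both libraries. Of the 7 erythroid markers tested, 6 were above 0 and 1 below. The 9 B lymphoid markers summed to 48.4 and 95.7 CPM with 5 and 1 of them at 0. Monocyte and dendritic markers summed to 544 and 656 CPM, with *Cx3cr1* at 0 in both libraries. *Lyz2* made up most of both sums (494 and 604 CPM), while *Csf1r* had 24 and 5 counts. Of the 5 tested, 3 were above 0 and 2 below. The 8 T and NK markers summed to 41.0 and 40.4 CPM, with single genes far apart in both directions: *Klrb1c* had 116 and 14 counts, *Il2rb* 0 and 34, and *Cd3g* 0 and 9. The 7 megakaryocyte markers were at 633 and 333 CPM, with 4 log2 ratios below 0 and 3 above. *Vwf* alone had 291 and 98.9 CPM. The 15 immediate-early genes were at 14035 and 7356 CPM, and all 13 tested were below 0. The part of these differences in any value below was not tested. In bulk RNA, fewer cells of a type and less RNA per cell cannot be told apart.

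None of the 10 members differed by 2-fold between the libraries. Of the 12588 genes with a mean of at least 1 CPM, 4.91% were at least 2-fold higher and 3.9% at least 2-fold lower in the KO-labelled library. At 1.5-fold the members again numbered 0, against 10.5% of genes higher and 10% lower. The counting interval lay above 0 for 2 members, *Rbl2* and *Cdk6*, and below 0 for 1, *Cdk4*, where 19.2% and 20.8% of all genes did the same, so these counts are near the background. The median log2 ratio of the members was 0.11, with 5 above 0 and 5 below, against -0.003 over all genes tested. The spread between the libraries depended on expression. With the tested genes cut into 10 equal expression classes, 40.9% differed by 2-fold in the lowest class and 0.874% in the highest, so each member was also read against the central 95% of log2 ratios in its own class.

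**Figure D1:**
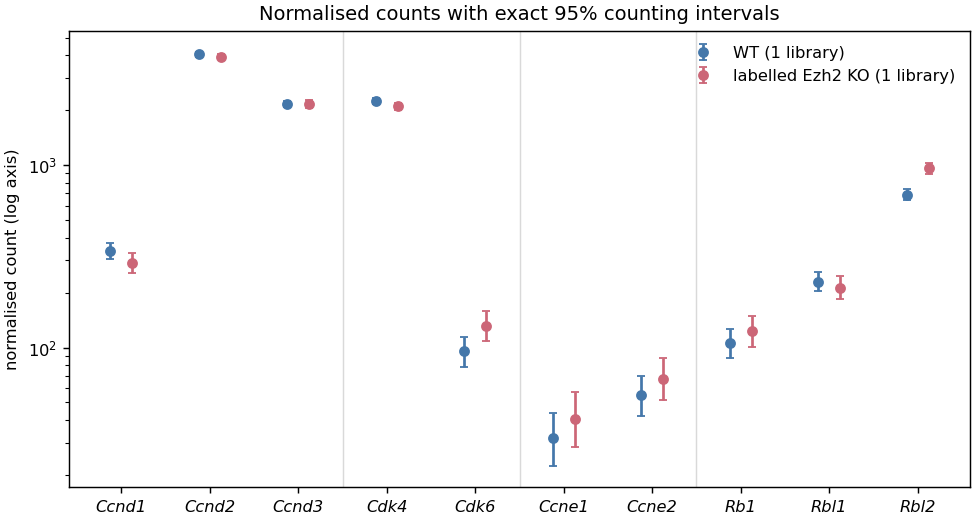
Normalised counts of the 10 members on a log axis, in the WT library and the KO-labelled library; bars are exact 95% counting intervals of the 1 library in each group. *Ccnd2*, *Ccnd3* and *Cdk4* lie above 2000 in both libraries, the E-type cyclins below 100, and the 2 intervals of *Rbl2* lie apart.

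Among the D-type cyclins, which carry the mitogen signal to the kinases, *Ccnd2* (chromosome 6, 127125162 to 127152193) was the most counted, with 4723 counts in WT and 3373 in the KO-labelled library, or 4053 and 3931 normalised counts. Its log2 ratio was -0.04 (-0.11 to 0.02). *Ccnd3* (chromosome 17, 47505051 to 47599691) had 2528 and 1859 counts, or 2169 and 2166 normalised counts, with a log2 ratio of -0.002 (-0.09 to 0.08). Both cyclins had nearly the same level in both libraries, where the central 95% of their class ran from -0.53 to 0.40. *Ccnd3* shared 1.42% of its 61-base stretches with its pseudogene *Ccnd3-ps*. *Ccnd1* (chromosome 7, 144929931 to 144939925), the D-type cyclin most tied to growth factor and Wnt signalling, was far scarcer, with 396 and 249 counts, or 339.8 and 290.2 normalised counts. Its log2 ratio of -0.23 (-0.46 to 0.004) was the lowest of the members and lay within the range of its class (-0.62 to 0.55). Summed, the D-type cyclins had 6562 and 6387 normalised counts, giving a log2 ratio of -0.04 (-0.09 to 0.01).

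The make-up of the D-type pool was also alike. *Ccnd2* supplied 61.8% of D-type counts in WT (60.7% to 62.9%) and 61.5% in the KO-labelled library (60.2% to 62.8%), and *Ccnd3* supplied 33.1% and 33.9%. *Ccnd1* made up 5.18% (4.69% to 5.70%) and 4.54% (4.01% to 5.13%). *Ccnd2* has longer transcripts, and per kilobase of the longest transcript *Ccnd2* and *Ccnd3* came close to each other, at 49.5% and 43.5% in WT and 49.3% and 44.6% in the other library. *Ccnd1* and the neighbouring gene *Oraov1*, on the opposite strand, share 1100 exon bases, 23.4% of those of *Ccnd1*. Strand use in counting was not stated, so reads of the genes in such an overlap cannot be told apart.

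Of the 2 kinases, *Cdk4* (chromosome 10, 127063534 to 127067920) had a raw count of 2614 in WT and 1800 in the KO-labelled library, which scaled to 2243 and 2098 normalised counts. On the log2 scale the ratio was -0.10 (-0.18 to -0.01), inside the range of its class. *Cdk4* shares 641 exon bases (19.7%) with *Tspan31* on the opposite strand, which had 846 and 558 counts. *Cdk6* (chromosome 5, 3341485 to 3531008), the kinase whose level is known to set how readily HSCs leave quiescence, had 111 and 113 raw counts, or 95.3 and 131.7 normalised counts. Its log2 ratio of 0.46 (0.08 to 0.86) was wide in error and well inside the range of its class (-1.02 to 0.97), where 20.5% of genes differed by 1.5-fold.

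*Cdk4* RNA outnumbered *Cdk6* RNA in both libraries. *Cdk6* made up 4.07% of the counts of both kinases in WT (3.36% to 4.88%) and 5.91% in the KO-labelled library (4.89% to 7.06%). Because the longest *Cdk6* transcript has 11525 bases and that of *Cdk4* 2053, the gap was wider per kilobase of that transcript, where *Cdk6* made up 0.751% and 1.11%. The counting intervals of the *Cdk6* share of counts lay next to each other without overlap. Division by length acts alike on both libraries and so gives no second comparison between them.

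The E-type cyclins, which activate CDK2 at the end of G1, were the least counted members. *Ccne1* (chromosome 7, 38097984 to 38107534) had a raw count of 37 in WT and 35 in the KO-labelled library, or 31.8 and 40.8 normalised counts. *Ccne2* (chromosome 4, 11191351 to 11204779) had 64 and 58 counts, or 54.9 and 67.6 normalised counts. The log2 ratios of 0.35 (-0.35 to 1.07) for *Ccne1* and 0.29 (-0.24 to 0.83) for *Ccne2* both included 0, so a difference was not detectable at this depth in either gene. Summed, they had 86.7 and 108.4 normalised counts, giving a log2 ratio of 0.32 (-0.10 to 0.74). *Ccne2* supplied 63.4% and 62.4% of E-type counts. *Ccne2* shares 17.4% of its exon bases with *Ints8* on the opposite strand.

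**Figure D2:**
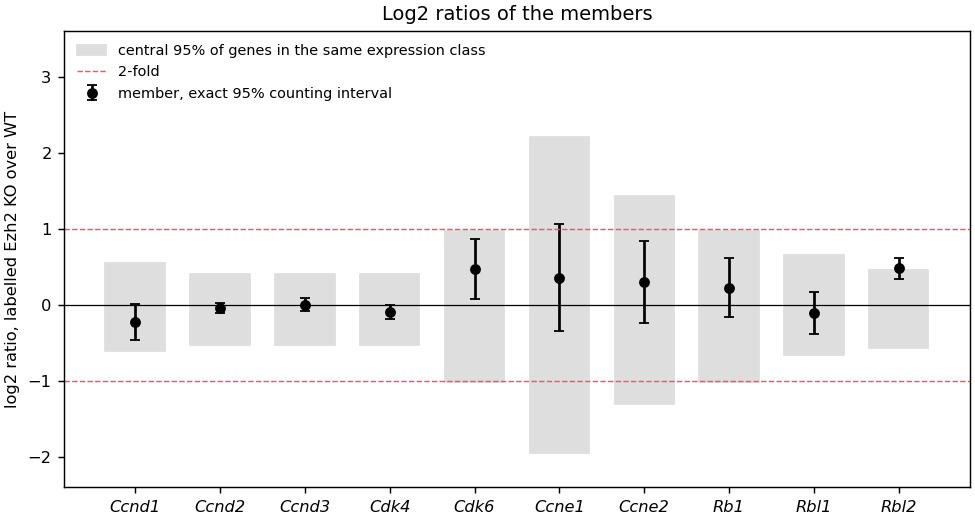
Log2 ratios of the members (library labelled Ezh2 KO over WT; points, with exact 95% counting intervals) over grey bands that give the central 95% of log2 ratios among genes in the same class of expression; dashed lines mark 2-fold. *Rbl2*, at 0.48, is the only point outside its band, which ends at 0.46 and within its counting interval. By construction some genes of every class lie outside the band.

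Of the pocket proteins, which restrain E2F, *Rbl2* differed most between the libraries. *Rbl2* (chromosome 8, 91070057 to 91123844), which encodes p130, the pocket protein of resting cells, had 803 counts in WT and 824 in the shallower KO-labelled library, or 689.1 and 960.2 normalised counts. Its log2 ratio of 0.48 (0.34 to 0.62), or 1.39-fold, lay just outside the central 95% of its class (-0.57 to 0.46), and its counting interval spanned that edge. By construction some genes of every class lie outside this range, so *Rbl2* as the only member outside its own is not a finding by itself. It did not reach 1.5-fold, by which 3.18% of genes in its class differed. On the opposite strand, *Rbl2* overlaps *Gm45464*, which is not among the counted symbols, over 892 exon bases (11.8%). There *Rbl2* also overlaps *Aktip* over 693 exon bases (9.17%), and *Aktip* had 304 and 255 counts. No stretch of 61 bases of the longest *Rbl2* transcript occurred in transcripts of genes elsewhere in the genome.

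*Rb1* (chromosome 14, 73183673 to 73325822), the retinoblastoma gene, had 123 and 106 counts, or 105.6 and 123.5 normalised counts, with a log2 ratio of 0.22 (-0.16 to 0.61). *Rb1* shares 8.11% of its exon bases with *Rcbtb2* (712 and 521 counts) and 6.78% with *Lpar6* (524 and 235 counts), both on the opposite strand. *Rbl1* (chromosome 2, 157145893 to 157204534), which encodes p107 and is best known from cycling cells, had 268 and 183 counts, or 230.0 and 213.3 normalised counts. Its log2 ratio was -0.11 (-0.39 to 0.17). The interval of *Rbl2* lay above that of *Rbl1*, and those of *Rb1* and *Rbl2* overlapped. Of the pocket protein counts, *Rbl2* supplied 67.3% in WT (64.5% to 69.9%) and 74.0% in the KO-labelled library (71.4% to 76.6%), while *Rbl1* supplied 22.4% (20.1% to 24.9%) and 16.4% (14.3% to 18.8%). *Rb1* supplied 10.3% and 9.52%. Per kilobase of exon the *Rbl2* share was 62.0% and 69.4%. These shares do not depend on scaling between the libraries. Their intervals carry counting error alone, and how far such a share moves between replicate libraries was not measured.

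**Figure D3:**
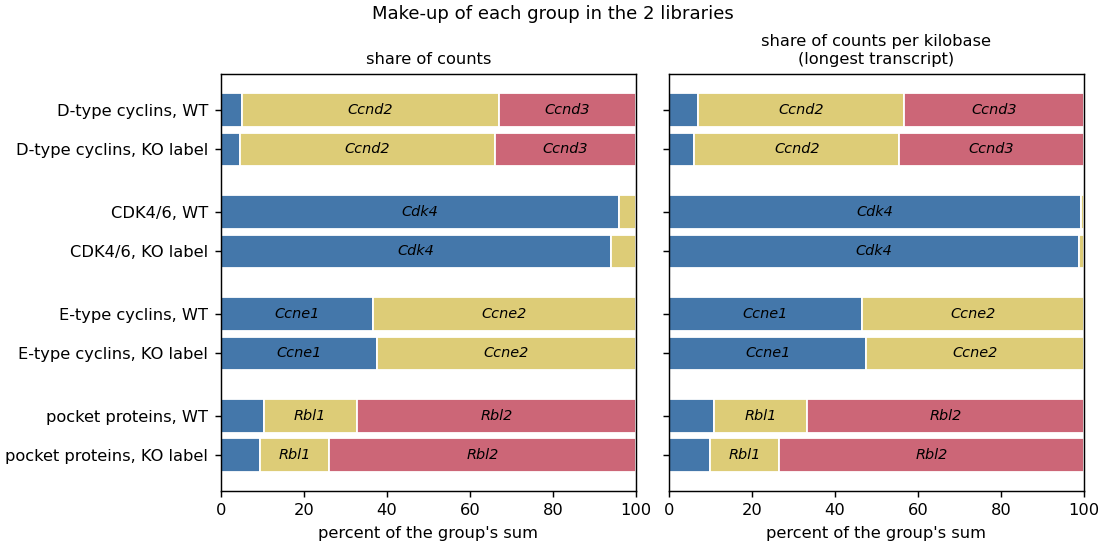
Share of each member in the summed counts of its group (left) and in the counts per kilobase of the longest transcript (right), for WT and the KO-labelled library (KO label); the unlabelled segments are *Ccnd1* and *Rb1* at the left ends and *Cdk6* at the right ends. The *Rbl2* segment widens from 67.3% to 74.0% of counts, and the D-type bars are nearly the same in both libraries.

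Levels were then compared between genes per kilobase of exon, in CPM per kilobase. The order was the same in both libraries: *Cdk4* (139.6 in WT and 133.3 in the KO-labelled library), *Ccnd2* (87.1 and 86.2), *Ccnd3* (49.99 and 50.96), *Rbl2* (18.4 and 26.2), *Ccnd1* (14.6 and 12.7), *Rbl1* (7.76 and 7.35), *Rb1* (3.55 and 4.24), *Ccne2* (3.18 and 3.99), *Ccne1* (2.41 and 3.16) and *Cdk6* (1.38 and 1.94). With the longest transcript as the length this order was also the same in both libraries. *Rb1* and *Ccne2* did not differ beyond counting error in either library, nor did *Ccne2* and *Ccne1*, and in the KO-labelled library neither did *Ccne1* and *Cdk6* per kilobase of exon. The step from *Rbl2* down to *Ccnd1* was 1.26-fold in WT and 2.06-fold in the other library. By normalised counts, which are not divided by length, *Ccnd2*, *Cdk4* and *Ccnd3* stood above at least 97.7% of the genes tested in either library. On that measure *Ccne1* exceeded only 18.1% and 21.0%.

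The other genes of the pathway were read from lists. CDK inhibitors, which block the kinases, had 5 of 7 genes above the expression minimum, and 0 of these differed by 2-fold. The most abundant was *Cdkn1c*, which encodes p57, known for HSC quiescence, at 542.3 and 636.3 normalised counts (log2 ratio 0.23, 0.06 to 0.40). *Cdkn2a* had 0 and 1 counts and *Cdkn2b* 0 in both libraries, so both were at the floor. Of 10 E2F and DP factors, *E2f2* alone differed by 2-fold, at 34.3 and 80.4 normalised counts (1.20, 0.65 to 1.83), within the range of its class (-1.31 to 1.43). *Tfdp1*, the DP partner with the most counts, had 1424 and 1121 normalised counts, and *E2f4*, the partner of p130, had 592.1 and 491.8 (-0.27, -0.45 to -0.09). Of the 7 DREAM and MuvB genes, 5 were above 0 and 0 passed 2-fold, with a list median of 0.33. *Foxm1* alone passed 1.5-fold, lower at 42 and 20 counts (-0.61). Its interval (-1.48 to 0.17) included 0, and the ratio lay within its class (-1.95 to 2.21). The most abundant gene of that list, *Rbbp4*, a histone chaperone shared with Polycomb repressive complex 2, had 1153 and 1459 normalised counts (0.34, 0.23 to 0.45).

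Genes further along the cycle lay on both sides of 0. Of the 22 E2F targets, 17 had log2 ratios below 0 and 5 above, where 6344 of all 12588 genes were below, and the list median was -0.19. The counting interval lay below 0 for 5 of the 22 and above 0 for 3, which is near the 20.8% and 19.2% of all genes. *Mcm6*, a helicase subunit, had 2344 and 1897 normalised counts (-0.30, -0.39 to -0.22). *Mki67* was the only target past 2-fold, higher at 37.8 and 83.9 normalised counts (1.13, 0.59 to 1.73), and within the range of its class. Among S and M phase cyclins and kinases, 0 of 9 tested passed 2-fold. *Wee1*, which holds CDK1 inactive, had 607.6 and 489.4 normalised counts, *Cdc25a*, which activates CDK2, had 325.2 and 196.9 (-0.72, -0.99 to -0.46, outside its class, which ran from -0.62 to 0.55), and *Ccnb1* had 125.3 and 207.4 (0.72, 0.40 to 1.05). At 1.5-fold, 1 of the 9 was higher (*Ccnb1*) and 2 were lower (*Cdc25a* and *Cdc25b*, the latter at 146.7 and 93.2 normalised counts, -0.65, -1.06 to -0.26).

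None of the genes for assembly and activation of the kinases (5 tested), for turnover of G1 cyclins and p27 (10 tested) or for repressors recruited by pocket proteins (8 tested) passed 2-fold or 1.5-fold. Their most abundant members were *Hsp90ab1* (8050 and 7584 normalised counts), *Skp1a* (2614 and 2815) and *Rbbp7* (2499 and 2439), and the list medians were 0.02, 0.11 and 0.03. Of 13 inputs to G1 cyclins, 2 were at least 2-fold lower, the transcription factors *Fos* (log2 ratio -1.50) and *Mycn* (-1.07), and 0 were higher. Over all genes tested 3.9% were lower. At 1.5-fold, 3 of the 13 were lower, *Jun* (-0.76) included, and 0 higher, against 10% of all genes lower. *Myc* had 2638 and 3269 normalised counts (0.31, 0.23 to 0.38). *Ccnd2*, a known target of Myc proteins, and *Ccnd1*, a known target of AP-1, had the ratios of -0.04 and -0.23 given above.

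**Figure D4:**
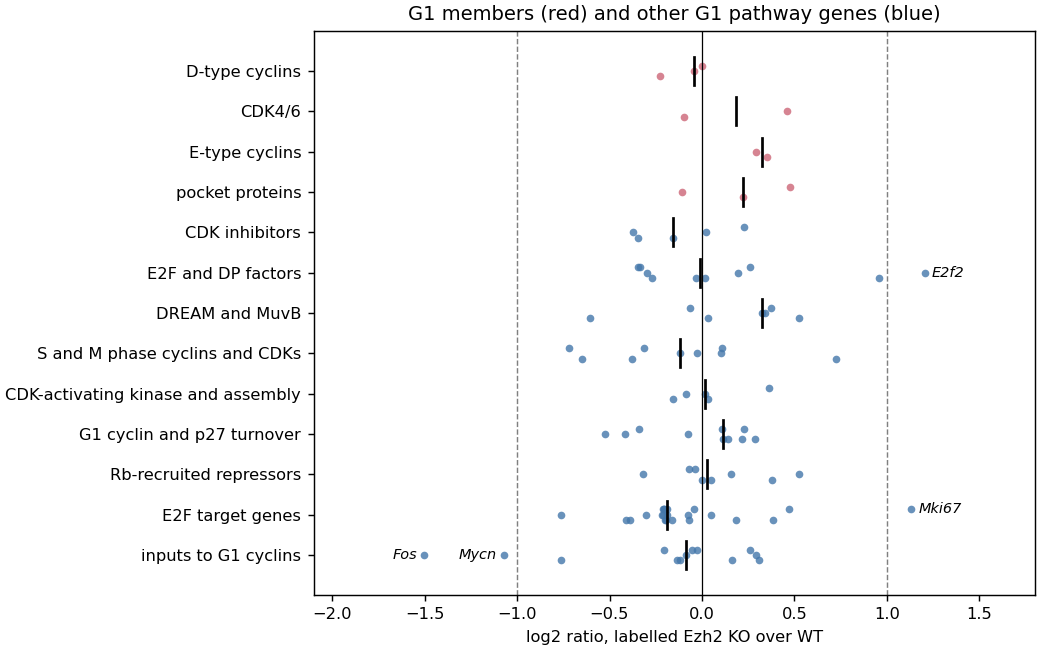
Log2 ratios (library labelled Ezh2 KO over WT) of the tested genes of each list, with the 4 member groups in red and the other G1 pathway lists in blue; black bars are list medians and dashed lines mark 2-fold. The members lie between -0.23 and 0.48, and *E2f2*, *Mki67*, *Fos* and *Mycn* are the only points past 2-fold.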

How the data were processed

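Sorted HSCs were profiled by RNA-seq in 1 WT library and 1 library labelled Ezh2 KO. The deposited tables give, for each gene symbol, an untransformed read count. The submitters' processing notes name TopHat2 2.0.13, Bowtie2 2.1.0, StringTie, edgeR and bedtools, and the build mm10, without roles. The 5 closing entries of each file bear the names that htseq-count uses for reads given to no gene. They held 56.1% and 56.9% of all entries and were left out.

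Size factors were from DESeq2 1.42.0 (TMM from edgeR 4.0.16 as an alternative; R 4.3.3), and the rest was computed in Python 3.11.15 with scipy 1.17.1. Neither package can estimate a spread from 1 library a group, so no test was fitted. A gene was called past a fold of 2 or 1.5 on log2(normalised count + 1) where the mean CPM was 1 or more. Intervals on ratios and shares are exact Clopper-Pearson intervals, and those on counts exact Poisson intervals, all at 95%. Expression classes are 10 equal groups of tested genes by mean CPM. Positions and lengths came from GENCODE M21 on GRCm38, the assembly behind mm10, which matched 23334 symbols directly and 668 by an older name. The procedure was tested on simulated data.

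The members and lists were chosen with earlier results of these data known. Named were all members, *Ezh2*, list genes past 2-fold in the pathway lists and the most abundant gene of each pathway list. *E2f4*, *Cdkn2a*, *Cdkn2b*, *Cdc25a*, *Ccnb1*, *Myc*, *Jun*, *Foxm1*, *Kit*, *Flt3*, *Cd48*, *Slamf1*, *Fgd5*, *Ctnnal1*, *Cdc25b*, *Ccr3*, *Siglecf*, *Elane*, *Lyz2*, *Csf1r*, *Vwf*, *Klrb1c*, *Il2rb*, *Cd3g*, *Cx3cr1*, *Xist* and *Uhrf1* were named after their values were seen. Other list genes of other cell types past 2-fold are given as sums or counts only.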

Additional observations from a re-analysis of the deposited data

How the results depend on the processing

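Under TMM, total-count and 2 other scalings, pseudocounts of 0.5 and 5, thinning of WT and removal of a length trend, all 80 member log2 ratios (10 members under 8 settings) stayed inside their counting intervals, and 9 of 10 members kept their sign. *Ccnd3* ran from -0.002 to 0.05, *Rbl2* from 0.47 to 0.51 and *Cdk6* from 0.41 to 0.49. The ratio of *Cdk4* was -0.07 under total-count scaling, against -0.10. A change of scaling moves the interval with the ratio, so the *Cdk4* interval, which ended at -0.01, then included 0. *Ccne1* moved most, from 0.32 to 0.57, and with WT thinned its 0.57 was above the 0.51 of *Rbl2*. The median of the members lay between 0.11 and 0.14. No member passed 2-fold under any setting, 1.5-fold included.

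The counts of all genes past the fold moved. Against 618 higher and 491 lower, they were 1404 and 1098 with no expression minimum, 96 and 115 with a minimum of 10 CPM, and 1321 and 1261 at 1.5-fold. Requiring the counting interval to lie beyond 0 as well gave 515 and 411.

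Shares within groups depended on length, WT first. Per kilobase of exon they were 57.4% and 57.5% for *Ccnd2*, 0.977% and 1.44% for *Cdk6* and 62.0% and 69.4% for *Rbl2*. Per kilobase of the longest transcript they were 49.5% and 49.3% for *Ccnd2* and 0.751% and 1.11% for *Cdk6*. For the *Ccnd2* share of counts, the difference between the libraries was within counting error. No interval was computed for the shares per kilobase. No paired analysis was possible because there is a single library for WT and a single KO-labelled one. Depth limits the E-type cyclins most, whose intervals are the widest of the members.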
